A study of Homo sapiens with 6 samples.

Results

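Pre-mRNA splicing regulators of the SR and hnRNP families were followed in H9 cells, an established human T lymphoma line that the labels call cutaneous, after exposure to PA4. The genes were chosen by name from the deposited table: 12 SRSF genes, 26 hnRNP genes (PTBP1 among them, also known as hnRNP I), and SF1, SFPQ, NONO, TRA2A, TRA2B, U2AF1 and U2AF2, which makes 45 of 26485 gene symbols. Names of 4 pseudogenes and 2 names with a hyphen were left out. Polyadenylated RNA was sequenced from 3 libraries of cells given DMSO, the vehicle, and 3 libraries of cells given PA4 at 1 µM, both for 24 h. PA4 is a code name for a compound that the series title describes as derived from berbamine. All libraries come from this 1 cell line, and nothing in the labels ties the replicates to different cultures. The spread between libraries, against which every p-value here is set, may thus be technical.

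SR proteins carry RNA recognition motifs and a tail rich in arginine and serine, and mostly promote the use of exons whose enhancers they bind. The hnRNPs coat nascent transcripts and often act in the other direction, silencing exons or competing for the same sites. SF1, U2AF2 and U2AF1 mark the 3′ splice site, by recognising in turn the branch point, the polypyrimidine tract and the terminal AG. In T cells such regulators are known for setting which variable exons of the phosphatase gene PTPRC (CD45) are kept. The unit of all results is the gene: reads of every isoform are summed, so exon choice itself is not visible in these counts.

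Library totals lay between 18282212 and 22875191 counts. Of the T cell markers, CD3E had 2099 to 2529 counts per library, whereas CD4 had 6 to 12 and CD2 at most 1. The myeloid marker CD14 had 0 to 2 counts, and COL1A2, NANOG and SOX2 of fibroblasts and pluripotent cells had 0 in each library. Of the markers of other cell types, CD79A (178 to 260 counts) and CD79B (151 to 227) of B cells carried reads, with CD22 at 0. The myeloid CD68 (8 to 28 counts) and ITGAM (5 to 14) and the fibroblast COL1A1 (12 to 26) carried few. The epithelial CDH1 (127 to 178) and EPCAM also carried reads. EPCAM was at 2387 to 3022 counts, or 129.9 CPM on average (counts per 1000000 of the TMM-scaled library), with KRT8 and KRT18 at 0 to 5 counts. In edgeR 28 of 12107 tested genes passed an adjusted p of 0.05 (a Benjamini-Hochberg adjusted p from the quasi-likelihood test over all tested genes).

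These 45 genes took 2.23% to 2.28% of the counts of every library, with 2.26% to 2.28% in the PA4 libraries. Of the 45, 39 passed the filter on low counts. Their median level was 125 CPM per kilobase of gene model, against 9.01 over all tested genes, and 37 of the 39 lay above that overall median. Levels between genes are compared per kilobase here, using the model length in the table, which is long where untranslated or alternative exons add up, as in SRSF10 at 8213 bases and HNRNPR at 7838 bases.

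HNRNPA1, which silences exons and shuttles between nucleus and cytoplasm, had the highest level, 976 ± 14.9 CPM per kilobase in control and 978 ± 11.3 with PA4 (SD, n = 3 each). HNRNPA2B1, its close relative, was next at 653 ± 25.01 and 659 ± 10.9, followed by HNRNPC, which binds uridine tracts, at 415 ± 9.24 and 421 ± 3.31, and by the C-rich binder HNRNPK at 363 ± 3.03 and 371 ± 3.30 CPM per kilobase (SD, n = 3 each). These steps were larger than the spread between libraries, which does not cover the choice of gene model length. Without division by length HNRNPA2B1 stood above HNRNPA1, at means of 2416 and 1879 CPM in control. The next 4, NONO, HNRNPD, HNRNPM and HNRNPF, had control means between 264 and 274 CPM per kilobase. In each group every NONO library lay above every HNRNPM and HNRNPF library, while HNRNPM and HNRNPF overlapped in control and HNRNPD overlapped all 3 there. The 4 most abundant genes of the set were thus all hnRNPs, while the highest SR genes, SRSF2, SRSF1 and SRSF3, had 184 ± 5.12, 177 ± 7.57 and 176 ± 3.85 CPM per kilobase in control (SD, n = 3 each), again without an order beyond their spread. At the lower end of the genes with clear signal stood SRSF8, related to SRSF2, at 9.26 ± 0.244 and HNRNPA1L2, a copy of HNRNPA1, at 7.95 ± 0.350 CPM per kilobase in control (SD, n = 3 each). Reads of HNRNPA1 can be shared with such copies, and HNRNPA1L2 had 352 to 435 counts per library against 34091 to 42646 for HNRNPA1.

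**Figure D1:**
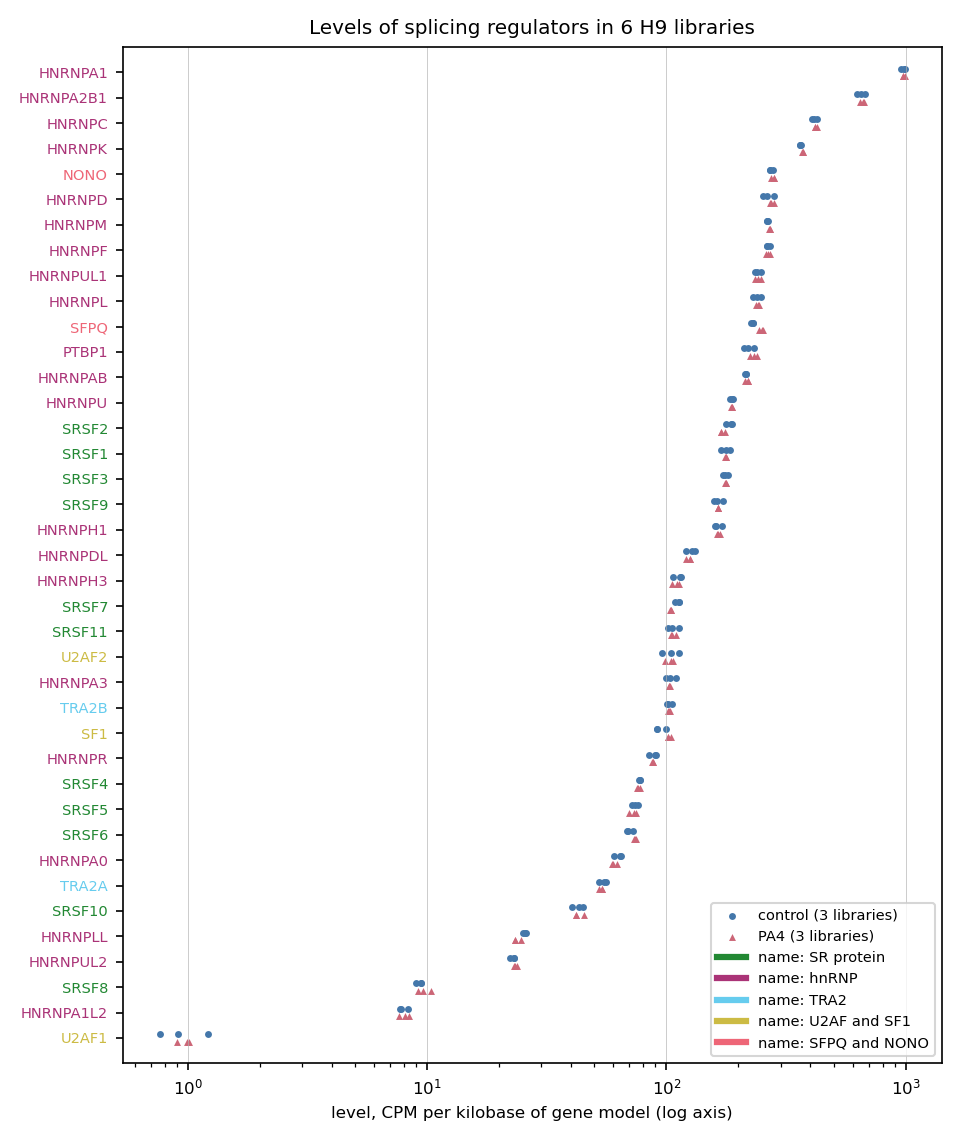
Level of the 39 tested genes in each library, in CPM per kilobase of gene model on a log axis, with circles for 3 control and triangles for 3 PA4 libraries and name colours for the families. HNRNPA1 lies highest, near 976, U2AF1 lowest, near 0.963, and the symbols of the 2 groups lie close together within each gene.

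U2AF1 stood far below its partner. It encodes the small subunit of the U2AF dimer, and had 36, 30 and 47 counts in control replicates 1 to 3 and 37, 47 and 37 counts with PA4, whereas U2AF2, the large subunit, had 5659 to 7609 counts per library. The GRCh38 reference holds a near-identical copy of U2AF1 (chromosome 21, 43092956 to 43107578), LOC102724594, also named U2AF1L5, on the same chromosome at 6484623 to 6499248. In GENCODE release 29 the 1675-base transcripts of the 2 loci differ at 2 bases and the 1019-base transcripts at 1, so that a short read often matches both loci equally well. The promoter windows of RefSeq (GRCh38.p14, minus strand) are shown because they carry the same near-identity, with 1 difference in 300 bases, A262C, where U2AF1 gives the first letter and positions are counted from 1 at the 5′ end; the differing base is in capitals. The windows are chr21:43107521-43107820 and chr21:6499199-6499498.
U2AF1: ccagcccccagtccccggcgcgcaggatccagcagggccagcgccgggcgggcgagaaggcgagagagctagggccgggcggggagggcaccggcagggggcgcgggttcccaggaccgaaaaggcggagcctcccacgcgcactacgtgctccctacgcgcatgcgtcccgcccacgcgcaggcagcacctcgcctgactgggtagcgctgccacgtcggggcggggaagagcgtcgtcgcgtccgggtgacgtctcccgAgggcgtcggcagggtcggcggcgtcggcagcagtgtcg
LOC102724594: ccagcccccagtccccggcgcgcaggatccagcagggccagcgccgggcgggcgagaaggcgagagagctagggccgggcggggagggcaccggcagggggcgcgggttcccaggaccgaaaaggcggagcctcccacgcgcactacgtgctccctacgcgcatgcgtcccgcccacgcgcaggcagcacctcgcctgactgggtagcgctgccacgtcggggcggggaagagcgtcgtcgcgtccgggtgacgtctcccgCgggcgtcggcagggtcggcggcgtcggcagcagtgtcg
How the authors' counting treated reads with several alignments is not given in the sources used here, and a count for the copy was not analysed here. The low count of U2AF1 cannot be read as its level of expression, and its log2 fold change, 0.0094 ± 0.20 (SE), is the least precise of the set.

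The 6 genes under the filter had few or no reads. HNRNPH2, the paralogue of HNRNPH1, was just outside it, with 10, 10 and 14 counts in control and 9, 7 and 9 counts with PA4, and U2AF1 was the member just inside. HNRNPH2 lies within the readthrough gene RPL36A-HNRNPH2 (chromosome X, 101391011 to 101414133), which had 0 counts in each library, and whether reads shared by these overlapping genes were lost in counting was not tested. HNRNPCL1, a copy of the HNRNPC coding sequence, had 3, 5 and 6 counts in control and 8, 2 and 9 with PA4. SRSF12 had 1, 0 and 0 counts in control and 0, 0 and 1 with PA4, HNRNPCL2 had 1 count in control replicate 3 and 0 elsewhere, and HNRNPCL3 and HNRNPCL4 had 0 in all 6 libraries.

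The comparison of PA4 with vehicle asked how the profile differed under a treatment that the submitters link to cell death. Among these regulators, edgeR's quasi-likelihood test called 0 of 39 genes at an adjusted p of 0.05, where 0.231% of all tested genes were called, and DESeq2 and limma-voom, which called 0.322% and 0.223% of all tested genes, also called 0. At an unadjusted p under 0.05 there were 6 of 39, or 15.4%, against 5.29% of all tested genes. SFPQ, SF1 and SRSF6 were the 3 with higher values under PA4 (2.69% of all tested genes), and SRSF2, SRSF7 and HNRNPLL the 3 with lower values (2.6%). The PA4 and control libraries did not overlap in 9 of the 39, or 23.1%, against 11.2% of all tested genes: these 6 and, with higher values, HNRNPK, HNRNPM and HNRNPUL2. That makes 6 higher (5.91% of all tested genes) and 3 lower (5.31%). The background of all tested genes was not matched to these regulators for expression level. The shares are thus not read as an enrichment. The median log2 fold change was 0.0054, against -0.0040 over all tested genes, with 24 positive and 15 negative values, and values ran from -0.10 in SRSF2 to 0.13 in SF1.

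Set against the spread between these libraries, which may be technical, the changes left possible were small. The median standard error was 0.034 log2 for these genes, against 0.069 over all tested genes. For 29 of 39 genes a fold change beyond 1.1 in either direction was outside the 95% interval (24.4% of all tested genes), and for 38 of 39 one beyond 1.25 (71.7%). The exception at 1.25 was U2AF1, with an interval of 0.746 to 1.36. For HNRNPA1, HNRNPF, HNRNPU, HNRNPUL1, SRSF1, SRSF3 and TRA2B the interval lay within 1.05-fold, which held for 0.686% of all tested genes. Such intervals narrow with read number, and the median level was 440.1 CPM in these genes against 30.1 CPM over all tested genes.

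**Figure D2:**
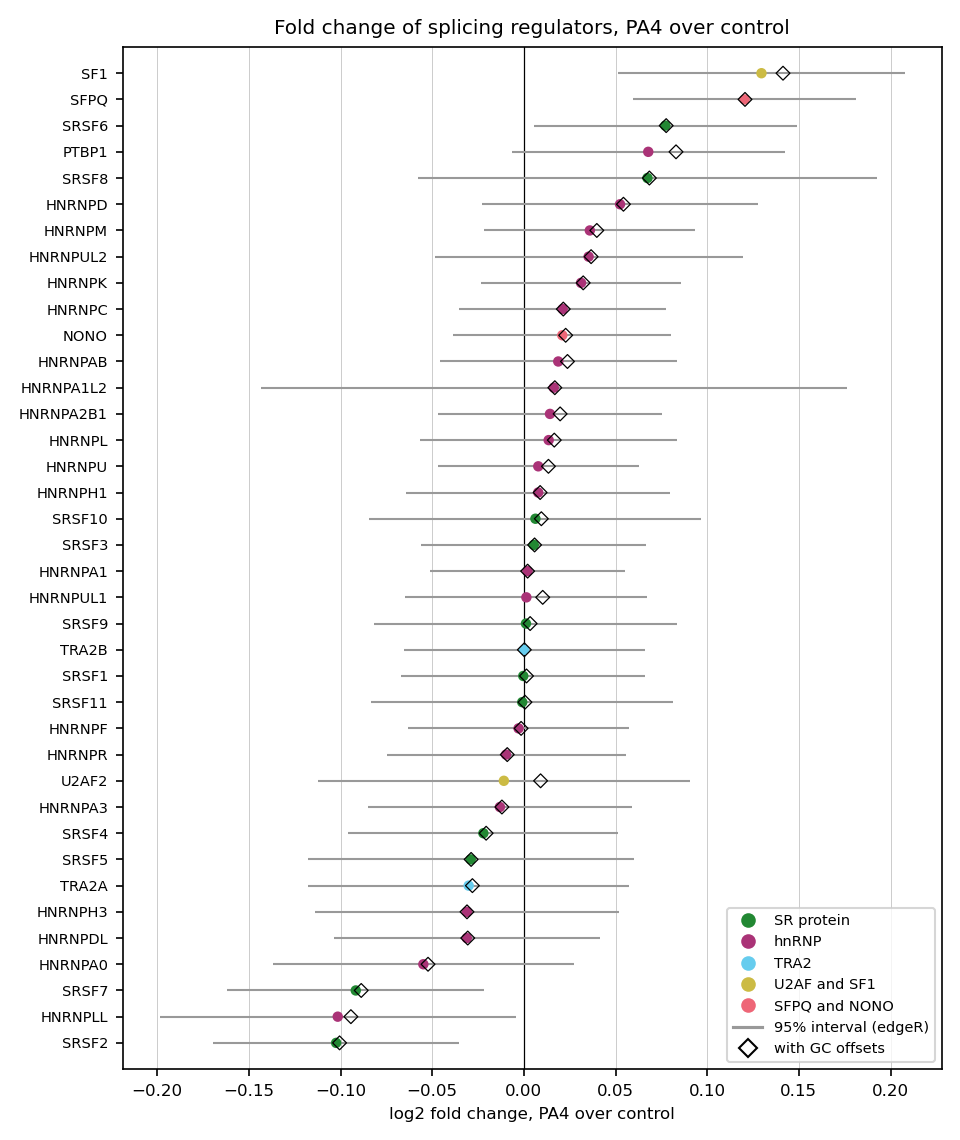
Log2 fold change of PA4 over control for 38 tested genes (U2AF1, with its wide interval, is left out), as coloured points with 95% intervals from edgeR, and the same value after offsets for GC content as open diamonds. Most points lie within 0.05 of 0, SF1 at 0.13 and SFPQ at 0.12 lie highest and SRSF2 at -0.10 lowest.

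SFPQ, a partner of NONO in paraspeckles that also acts in splicing and transcription, had the smallest p of the set. Its levels were 705, 697 and 709 CPM in control replicates 1 to 3 and 779.8, 747 and 769 CPM with PA4. Every PA4 library lay above every control library, and the means were 704 ± 6.53 and 765 ± 17.0 CPM (SD, n = 3 each). The log2 fold change was 0.12 ± 0.03 (SE), or 1.09-fold with a 95% interval of 1.04 to 1.13, an unadjusted p of 0.000671 and a Benjamini-Hochberg adjusted p of 0.173 in edgeR. SFPQ lies on chromosome 1 of GRCh38 at 35176380 to 35193145.

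SF1 binds the branch point before the U2 snRNP and lies on chromosome 11 at 64764606 to 64778542. It had 421, 384 and 386 CPM in control and 429, 443 and 431 CPM with PA4. Control replicate 1 was close to the PA4 libraries, and the other control libraries were lower. The log2 fold change was 0.13 ± 0.04 (SE), or 1.09-fold (95% interval 1.04 to 1.15), with an adjusted p of 0.392 in edgeR.

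SRSF2, also known as SC35, a general splicing factor of nuclear speckles, lies on chromosome 17 at 76734115 to 76737411. It had 528, 557 and 550.2 CPM in control and 519, 500.3 and 503 CPM with PA4. The groups did not overlap, although control replicate 1 and PA4 replicate 1 were near each other. The log2 fold change was -0.10 ± 0.03 (SE), or 0.932 of control (95% interval 0.889 to 0.976), with an adjusted p of 0.528 in edgeR. In GENCODE 36.7% of the exon bases of SRSF2 are shared with MFSD11 on the other strand, which had 246 to 281 counts per library against 9185 to 11407 for SRSF2, and whether counting used strand is not known.

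SRSF7, an SR protein with a zinc knuckle, had 270.5, 281 and 280.1 CPM in control and 261, 261 and 258 CPM with PA4, a log2 fold change of -0.092 ± 0.033 (SE). SRSF6 had 275, 278 and 290.3 CPM in control and 293, 296 and 300.3 CPM with PA4, a log2 fold change of 0.077 ± 0.034 (SE). HNRNPLL, known for silencing variable exons of PTPRC in activated lymphocytes, had 76.5, 77.8 and 78.3 CPM in control and 70.9, 70.8 and 75.2 CPM with PA4, a log2 fold change of -0.10 ± 0.05 (SE). None of these 3 was called, with edgeR adjusted p-values of 0.783, 0.920 and 0.943, although their groups did not overlap. PTPRC itself averaged 424 CPM in control against 411 CPM under PA4, a log2 fold change of -0.046 ± 0.041 (SE).

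**Figure D3:**
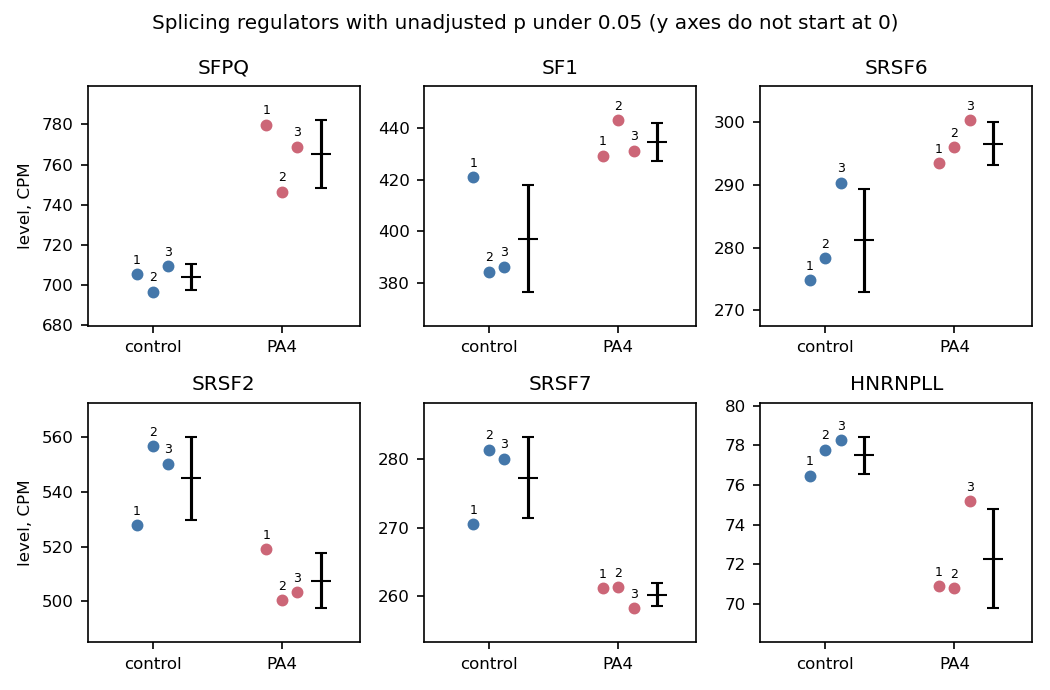
Level in CPM of the 6 genes with an unadjusted p under 0.05, for control and PA4 libraries, with replicate numbers above the points and the mean and SD (n = 3) beside each group; the y axes do not start at 0. The groups are separate in all 6 panels, and control replicate 1 of SF1, at 421, lies nearer to the PA4 libraries than to the other controls.

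Calls in this set moved with a control library. Without control replicate 1, edgeR called SFPQ, SF1 and SRSF2, at adjusted p-values of 0.0368, 0.00308 and 0.0365, in a fit that called 0.605% of all tested genes, and without any 1 of the other libraries it called 0. With no filter on low counts it called SFPQ (adjusted p 0.0359) and SF1 (0.0448), where 0.359% of 17262 genes were called. With offsets that remove each library's trend on GC content it called 4 of 39, where 1.12% of all tested genes were called: SFPQ at 0.12 ± 0.02 (SE, adjusted p 0.00417), SF1 at 0.14 ± 0.02 (0.000394), SRSF2 at -0.10 ± 0.02 (0.0270) and PTBP1 at 0.083 ± 0.021 (0.0474). The fold changes of these 4 were thus close to those without offsets, while their standard errors were smaller.

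In the other tested SR genes the PA4 and control libraries overlapped. SRSF1, the founding SR protein and a known oncogene, had 952, 1004 and 1037 CPM in control and 1001, 992 and 999.9 CPM with PA4. SRSF3, which also acts in mRNA export, had 621, 649 and 635 CPM in control and 637, 634 and 640.3 CPM with PA4. In both genes the PA4 libraries lay inside the control range, and the log2 fold changes were -0.00032 ± 0.031 and 0.0054 ± 0.029 (SE). SRSF4, SRSF5, SRSF8, SRSF9, SRSF10 and SRSF11 had log2 fold changes from -0.029 in SRSF5 to 0.067 in SRSF8, with overlapping groups in each. Over the 11 tested SR genes 5 values were positive and 6 negative, with a median of -0.00032. SRSF9 shares 46.2% of its exon bases with GATC on the other strand.

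Among the hnRNPs, HNRNPA1 had 1848, 1885 and 1905 CPM in control and 1907, 1871 and 1868 CPM with PA4. HNRNPA2B1 had 2325, 2412 and 2510.0 CPM in control and 2451, 2395 and 2474 CPM with PA4, and HNRNPC had 1319.9, 1351 and 1380.0 CPM in control and 1383, 1365 and 1363 CPM with PA4. The groups overlapped in these 3 abundant genes, whose log2 fold changes were 0.0020 ± 0.025, 0.014 ± 0.029 and 0.021 ± 0.027 (SE). HNRNPK had 1115, 1134 and 1124 CPM in control and 1157, 1137 and 1153 CPM with PA4. HNRNPM had 695, 692 and 698 CPM in control and 715, 713 and 709.9 CPM with PA4. The groups were separate in both genes, in HNRNPK by a narrow margin. The log2 fold changes of HNRNPK and HNRNPM were 0.031 ± 0.026 and 0.036 ± 0.027 (SE), and neither gene was called. HNRNPD, also known as AUF1, which binds AU-rich elements, had 572, 593 and 633 CPM in control and 618, 613 and 634 CPM with PA4. HNRNPF, which binds G tracts, had 884, 914 and 888 CPM in control and 912, 894 and 876 CPM with PA4. The controls of HNRNPD spread over more than the distance between the group means, and those of HNRNPF enclosed most of the PA4 values.

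PTBP1, the polypyrimidine tract binding repressor, had 760.4, 721 and 694 CPM in control and 761, 782 and 737 CPM with PA4, with a log2 fold change of 0.068 ± 0.035 (SE) and an adjusted p of 0.963. Control replicate 1 lay within the PA4 range. The remaining hnRNP genes, HNRNPA0, HNRNPA1L2, HNRNPA3, HNRNPAB, HNRNPDL, HNRNPH1, HNRNPH3, HNRNPL, HNRNPR, HNRNPU, HNRNPUL1 and HNRNPUL2, ran from -0.055 ± 0.039 in HNRNPA0 to 0.035 ± 0.040 in HNRNPUL2 (log2 fold change and SE). Over the 21 tested hnRNP genes 14 values were positive and 7 negative, with a median of 0.0079, and 17 had overlapping groups. HNRNPUL2 shares 44.1% of its exon bases with the readthrough gene HNRNPUL2-BSCL2, which had 0 counts in each library, and HNRNPU shares 15.6% with COX20 on the other strand.

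U2AF2 had 353, 326 and 301 CPM in control and 329, 334 and 310.1 CPM with PA4. The control values spread on both sides of the PA4 values, and the log2 fold change was -0.011 ± 0.048 (SE). NONO had 901, 875 and 876 CPM in control and 906, 906 and 878 CPM with PA4, at 0.021 ± 0.028 log2 (SE), which gives its value beside the 0.12 of its partner SFPQ. The difference between the partners was not tested. TRA2B, an activator that binds GAA-rich enhancers, had 431, 452 and 437 CPM in control and 445, 439 and 436 CPM with PA4. Its log2 fold change was 0.00016 ± 0.031 (SE), and that of its paralogue TRA2A -0.030 ± 0.041 (SE).

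SRSF1 and HNRNPA1 are textbook antagonists in the choice between competing splice sites, so their ratio was taken within each library. The ratio of SRSF1 to HNRNPA1 counts was 0.515, 0.533 and 0.544 in control and 0.525, 0.530 and 0.535 with PA4. The PA4 values lay inside the control range. The difference in log2 ratio was -0.0015, with p = 1 in an exact two-sided permutation test, which cannot go below 0.1 with 3 libraries against 3.

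Libraries also differed by base composition within a group. Control replicate 1 was set against control replicate 3 as a log2 ratio in 8510 genes averaging at least 10 CPM, and this ratio ranked with transcript GC content at a Spearman rho of 0.783. That was the strongest of the 6 pairs within a group: the other control pairs had 0.661 and 0.459, and the PA4 pairs -0.118, 0.404 and 0.502. Over the 38 of these regulators at that level, Pearson's r was 0.678 and Spearman's rho 0.480, as a description across genes of the same 2 libraries. U2AF2, with the highest GC content of the set at 61.1%, was at 0.23 in that log2 ratio, PTBP1 (59.5%) at 0.13 and SF1 (57.6%) at 0.12, whereas SRSF10 (40.8%) was at -0.16. Between a single control and a single PA4 library the widest log2 ratio of these 38 genes was that of SRSF8. It was at -0.21 for control replicate 1 over PA4 replicate 1. In the ratio of control replicate 1 over control replicate 3, SFPQ (42.2%) was at -0.0085 and SRSF2 (50.1%) at -0.060. After removal of the trend SF1 had 396, 388 and 403 CPM in control and 429.7, 438 and 441 CPM with PA4, and PTBP1 had 703, 728 and 732 CPM in control and 762, 769.8 and 759 CPM with PA4. Control replicate 1 then lay between the other controls in SF1 and below them in PTBP1. The offsets are fitted to each library's own GC trend, so a lowered control replicate 1 in GC-rich genes is built into the correction. It gives no separate support. The log2 fold change itself had a Spearman rho of 0.298 with GC content over the 38 genes and of -0.032 over the 8510.

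**Figure D4:**
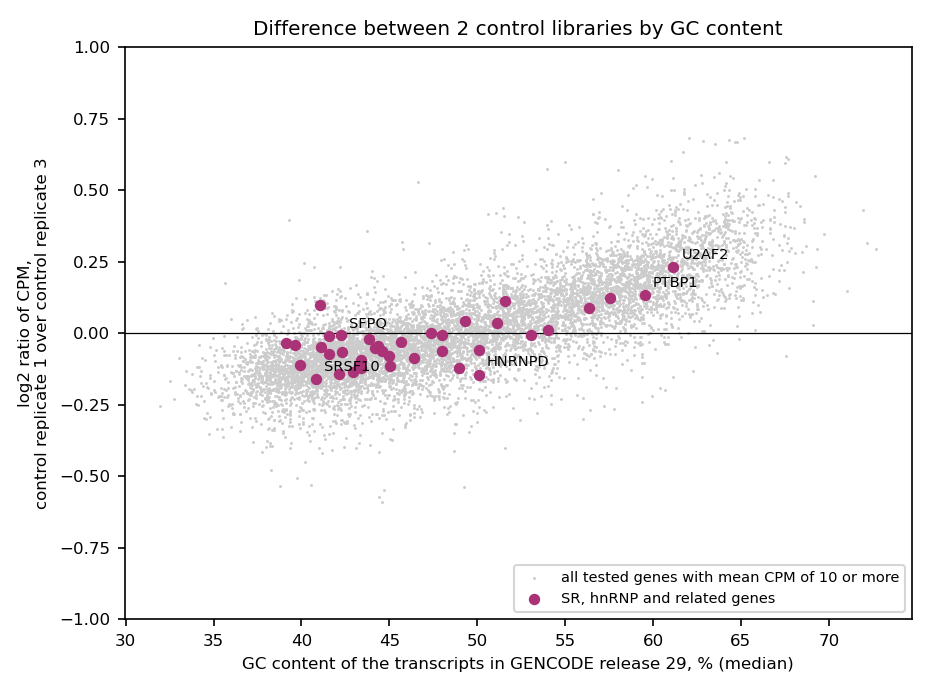
Log2 ratio of CPM in control replicate 1 over control replicate 3 (y axis) against the median GC content of a gene's transcripts (x axis, %), with 8510 genes in grey and 38 splicing regulators in purple. The purple points range from SRSF10 at -0.16 to U2AF2 at 0.23 and rise with GC content more loosely than all genes do (Spearman's rho 0.480 against 0.783). HNRNPA0 (41.1%) at 0.097 and HNRNPD (50.1%) at -0.15 are examples that depart from the trend.

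Other genes of the splicing machinery were taken from lists by function. Of 162 such genes tested, leaving out targets of splicing in T cells, edgeR, with or without GC offsets, DESeq2 and limma-voom each called 0. An unadjusted p under 0.05 was reached by 4 of them, or 2.47% against 5.29% of all tested genes, 2 with higher values, among them SMG5, and 2 with lower values, RBM39 and RSRC2. Their median log2 fold change was 0.0028, and the 95% interval of 159 of them lay within 1.25-fold, against 71.7% of all tested genes. None of the 17 kinases, phosphatases and importers that act on SR proteins and hnRNPs reached an unadjusted p under 0.05 in edgeR. The smallest p among them was that of the kinase gene CLK3, at -0.13 ± 0.07 log2 (SE), and SRPK1, the main cytoplasmic SR kinase, was at -0.040 ± 0.035 log2 (SE).

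Of 19 SR-related proteins and coactivators, RSRC2 had the smallest p, with means of 121 CPM (control) and 112 CPM (PA4) and a log2 fold change of -0.11 ± 0.04 (SE), with an edgeR adjusted p of 0.783. Of 41 other sequence-specific regulators, 0 were called by edgeR and the median log2 fold change was -0.0014. CELF2, one of these and a regulator of splicing in T cells, was at -0.032 ± 0.039 log2 (SE). In the core machinery the list medians were 0.014 over 22 genes of the U2 snRNP and branch point recognition, 0.00086 over 15 of the U1 snRNP and Sm core, and 0.016 over 35 of the tri-snRNP and catalytic step. The smallest p-values there belonged to U2AF1L4, at -0.25 ± 0.17, NCBP2, at 0.063 ± 0.037, and BUD31, at 0.066 ± 0.043 log2 (SE). SF3B1, which holds the branch point, was at -0.013 ± 0.031 log2 (SE).

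The exon junction complex and nonsense-mediated decay genes had a median of 0.045 over 15 genes, led by SMG5 at 0.098 ± 0.043 log2 (SE). Of 13 T cell and cancer genes known for alternative splicing, edgeR called 0 and gave 2, PKM and MCL1, an unadjusted p under 0.05 (5.29% of all tested genes), both with higher values. The smallest p was that of the pyruvate kinase gene PKM, a target of PTBP1 and HNRNPA1, whose mean was 1414 CPM in control against 1497 CPM under PA4, or 0.082 ± 0.031 log2 (SE). The PKM groups overlapped, with control replicate 1 at 1472 CPM and PA4 replicate 3 at 1470.4 CPM. With GC offsets edgeR called 1 of the 13, PKM, with a log2 fold change of 0.092 ± 0.019 (SE, adjusted p 0.00617), where 1.12% of all tested genes were called.

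**Figure D5:**
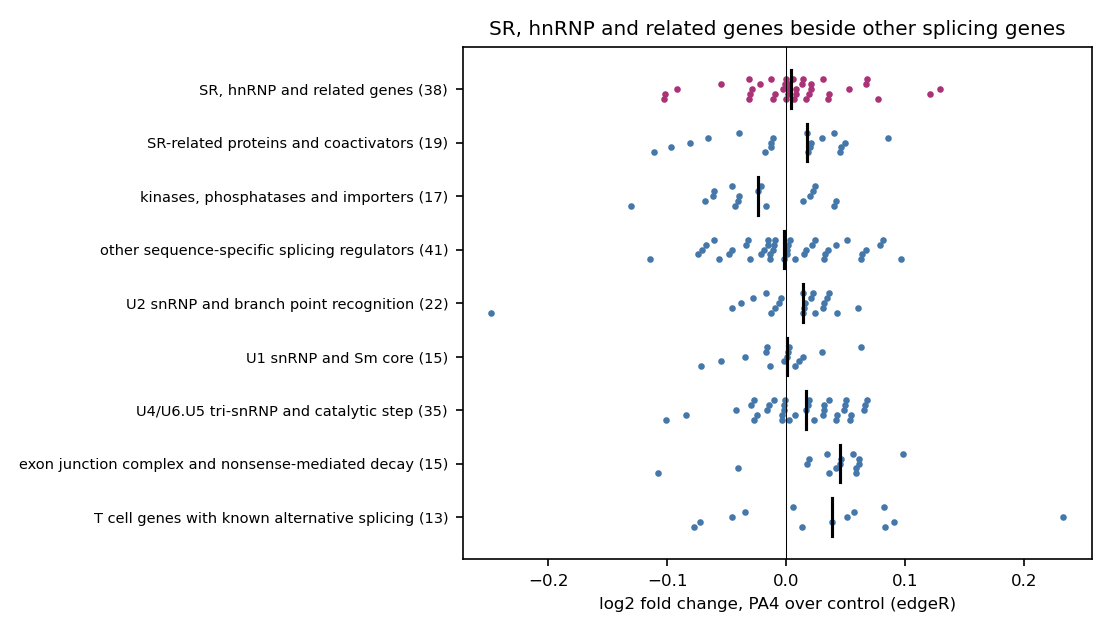
Log2 fold change of PA4 over control for the SR, hnRNP and related genes (purple, U2AF1 left out) and for 8 lists of other genes (blue), with the number of tested genes in brackets and a black bar at each median. The medians lie between -0.023, for kinases, phosphatases and importers, and 0.045, for the exon junction complex and decay.

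Some features of annotation were frequent among these regulators. SR genes are known to hold poison exons, whose inclusion sends their own transcript to nonsense-mediated decay. GENCODE release 29 lists at least 1 transcript of that class for 31 of the 39 tested genes, or 79.5%, against 41.7% of 11836 tested genes with an entry, and for 11 of 11 SR genes and 14 of 21 hnRNP genes. HNRNPU had 9 such transcripts and SRSF7 had 6. The median number of annotated transcripts was 12 against 7 over all tested genes. The 11836 genes were not matched to these regulators for number of transcripts or expression level. Summed counts hold productive and decaying transcripts together. In RefSeq promoter windows (250 bases before to 50 after a start, 50 windows of 35 of the genes), median GC content was 65.5% against 58.7% over 35116 windows. The letters CCAAT, on either strand, were in 48% of the windows against 34.6%, and CCGGAA, the core bound by ETS factors, in 26% against 17.2%. GCATGCGC, the core bound by NRF1, was in 8% against 3.05% and TATAAA in 12% against 11.5%, while AAGATGGC and TGACGTCA, found in 2.89% and 1.85% of all windows, were in 0 of the 50. Each was searched on both strands. The background windows were not matched to these genes for expression level. These shares are descriptions of sequence, not of binding.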

How the data were processed

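RNA sequencing of 6 H9 libraries, 3 control and 3 PA4, was analysed from 1 table. The authors deposited raw counts of reads per gene with each gene model's length, with no normalization and no pooling, and no per-library column was left out. The submitters' processing notes name Trimmomatic 0.39, fastp 0.23.2, STAR 2.7.9a and featureCounts of Subread 1.6.4 on hg38, that is GRCh38. The sources used here do not give the annotation, the strand setting or the treatment of multiple alignments.

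Counts were fitted over all genes in edgeR 4.0.16 (R 4.3.3) with filterByExpr at a minimum count of 10 (12107 genes kept), TMM scaling, glmQLFit and glmQLFTest, no covariate and Benjamini-Hochberg adjustment, called at an adjusted p under 0.05. Standard errors come from the F statistic. DESeq2 1.42.0, limma 3.58.1 (voom), other scaling, no filter, the replicate number as a block, GC offsets (a natural spline with 5 degrees of freedom on transcript GC content, 271 tested genes without a value left uncorrected) and leaving out each library were alternatives. The edgeR procedure was also run on simulated counts that held no GC trend, and the outcome is not reported here. GENCODE release 29 gave GC content and exon overlap, matching 23899 symbols directly and 715 through another name of 26485.

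The genes and lists were chosen with earlier results of these data known. Every gene of the set is named. Values per library are given for the 8 highest levels per kilobase, the 6 smallest p-values and 13 fixed genes, and counts for genes under the filter. Each list of other genes is represented by its smallest p, except 1 list, for which that gene is not reported here. SRPK1, CELF2, SF3B1, PTPRC, MCL1 and RBM39 were added after the values were seen.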

Additional observations from a re-analysis of the deposited data

How the results depend on the processing

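U2AF1 and the 6 genes under the filter had the fewest counts, and the interval of each other tested gene of the set lay within 1.25-fold. Against 0 of the splicing regulators and 28 genes in all called by edgeR, no low-count filter gave 2 (SFPQ and SF1) and 62, the replicate block 1 (SFPQ) and 59, GC offsets 4 and 136, and GC offsets with the replicate block 4 and 154. Leaving out 1 library gave 0 to 3 of them and 17 to 74 genes in all. DESeq2, limma-voom, DESeq2 size factors and library size alone gave 0 of them. SFPQ, SF1, SRSF2, SRSF7, SRSF6 and HNRNPLL kept their direction in all 14 alternatives. These genes were picked by smallest p from the same libraries, and their groups did not overlap. Leaving out 1 library could thus hardly reverse them, and the kept direction gives no separate support. Whether replicate numbers also pair libraries across the groups is not known. Over 8564 genes the deviations of libraries with the same number had correlations of 0.16, -0.088 and 0.42. Libraries with different numbers had correlations from -0.42 (control replicate 1 with PA4 replicate 3) to 0.33 (control replicate 1 with PA4 replicate 2).

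Genes near 0 changed sign. Leaving out 1 library gave log2 fold changes of -0.010 to 0.012 for HNRNPA1, -0.016 to 0.054 for HNRNPA1L2, -0.013 to 0.043 for HNRNPA2B1, -0.045 to 0.024 for HNRNPA3, -0.016 to 0.013 for HNRNPF, -0.0086 to 0.039 for HNRNPH1, -0.064 to 0.00087 for HNRNPH3, -0.014 to 0.042 for HNRNPL, -0.038 to 0.0092 for HNRNPR, -0.0044 to 0.016 for HNRNPU, -0.018 to 0.025 for HNRNPUL1, -0.033 to 0.028 for SRSF1, -0.038 to 0.043 for SRSF10, -0.033 to 0.041 for SRSF11, -0.011 to 0.021 for SRSF3, -0.026 to 0.039 for SRSF9, -0.015 to 0.020 for TRA2B, -0.13 to 0.21 for U2AF1 and -0.066 to 0.049 for U2AF2. For the SRSF1 to HNRNPA1 log2 ratio it gave -0.023 to 0.017, and GC offsets gave 0.00026. Library size alone gave -0.0041 for HNRNPA1, -0.0048 for HNRNPUL1, -0.00066 for SRSF3, -0.0050 for SRSF9 and -0.0059 for TRA2B. For SRSF1 and SRSF11 in that order, DESeq2 size factors gave 0.00085 and 0.00033, no low-count filter 0.0033 and 0.0028, DESeq2 0.00085 and 0.00035, the replicate block 0.00054 and 0.00033, GC offsets 0.0014 and 0.00060, and GC offsets with the block 0.0021 and 0.0011. For SRSF1 limma-voom gave 0.00048, for HNRNPF no filter gave 0.00075, for TRA2B GC offsets with the block gave -8.0e-05, and for U2AF2 GC offsets gave 0.0091 and with the block 0.0089. The cause was not tested.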
